A study of Mus musculus with 4 samples.

Results

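P-selectin and 8 other adhesion genes of the blood vessel wall were read in mouse pancreatic islets with and without knockdown of Tafazzin, the mitochondrial transacylase that remodels cardiolipin. The genes are Selp, Sele, Icam1, Vcam1, Pecam1, Cdh5, Esam, Vwf and Emcn, 9 of the 24940 genes of the deposited table, and all 9 were found by symbol. They were selected on their measured values in the comparison described here, so that their differences between the groups are a description and carry no test. Islets were isolated from male mice aged 3 to 4 months on a low-fat chow diet. About 300 islets, pooled from 2 to 3 mice, made up each library of ribosome-depleted total RNA. The 2 control libraries (replicates 1 and 2) came from non-transgenic mice and the 2 knockdown libraries (replicates 3 and 4) from Tafazzin-knockdown mice, so that an effect of the transgene and an effect of Tafazzin depletion cannot be told apart. The construct and its promoter are not given in the sources used here.

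Endothelial cells line the vessels and hold leukocytes in a fixed order of steps. Selectins on the vessel wall bind sugar-bearing ligands and let leukocytes roll, after which the immunoglobulin-family proteins ICAM-1 and VCAM-1 bind integrins and arrest them, and junctional proteins such as PECAM-1, VE-cadherin and ESAM border the path between the cells. P-selectin and von Willebrand factor are stored in the Weibel-Palade bodies of endothelial cells and are released when these bodies fuse with the membrane. E-selectin, ICAM-1 and VCAM-1 are known as genes that inflammatory cytokines induce in endothelium through the transcription factor NF-kappaB. Islets are crossed by a dense network of fenestrated capillaries.

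Each value counts the reads of a gene for every 10000000 reads in its library, and 1 such read is called a unit. The table's lengths and its antisense pairs point to counting along the entire gene, introns included, on both strands. Library totals were 68823160 reads in control 1, 81073502 in control 2, 76680282 in knockdown 3 and 78630832 in knockdown 4. The rows of the table held 55470964 to 65175895 reads per library. Most of these lay in 13 rows with a mean above 25000 units, not counting the insulin genes. All other rows, insulin genes included, held 4320910 to 4962798 reads per library. Among genes with 1 to 50 reads, 79.6% to 81.3% held an even number of reads, so that 95% exact Poisson intervals were computed on pairs of reads. They are two-sided and cover counting error only. For a count of 0 a one-sided limit of 3 pairs is used, which comes to 0.740 to 0.872 units. Ins2, the insulin gene of beta cells, had 58450 and 46110 units in the controls against 48200 and 52000 in the knockdown libraries, the highest of the endocrine markers in tissue labelled as islets. Taz, the targeted gene, read 23.1 and 15.4 units in the controls against 13.8 and 12.7 in the knockdown libraries. Its log2 fold change was -0.65 ± 0.25 (SE), with an adjusted p of 0.529 in limma and 0.122 in edgeR, both with Benjamini-Hochberg adjustment. The knockdown libraries were thus lower in Taz than both controls without passing either test. No library repeated another. Knockdown 3 was the higher knockdown library for most genes described here.

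Promoter windows from RefSeq (build GRCm38.p6), running from 250 bases before to 50 bases after the start of the gene, were held for 4 of the 9 genes: Selp, Sele, Icam1 and Emcn. They are shown because they include both endothelial selectins and Icam1, the genes known for induction or storage in endothelium, beside Emcn, a gene of resting capillaries. They read 5′ to 3′ on the gene's strand, with matches to the searched motifs in capitals. The window of Selp is chr1:164115014-164115313, plus strand, that of Sele chr1:164047984-164048283, plus strand, that of Icam1 chr9:21015690-21015989, plus strand, and that of Emcn chr3:137340828-137341127, plus strand.
Selp: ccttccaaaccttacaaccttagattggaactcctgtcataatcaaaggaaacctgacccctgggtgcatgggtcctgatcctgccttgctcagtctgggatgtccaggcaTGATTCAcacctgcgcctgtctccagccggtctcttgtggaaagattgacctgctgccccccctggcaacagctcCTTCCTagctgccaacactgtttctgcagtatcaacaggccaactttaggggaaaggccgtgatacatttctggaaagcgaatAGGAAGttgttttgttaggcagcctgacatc
Sele: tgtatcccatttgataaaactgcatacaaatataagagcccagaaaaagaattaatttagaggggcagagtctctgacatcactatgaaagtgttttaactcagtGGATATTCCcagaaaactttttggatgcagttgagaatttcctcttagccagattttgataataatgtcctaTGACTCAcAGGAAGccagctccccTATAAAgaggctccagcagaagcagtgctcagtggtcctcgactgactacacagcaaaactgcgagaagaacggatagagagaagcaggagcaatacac
Icam1: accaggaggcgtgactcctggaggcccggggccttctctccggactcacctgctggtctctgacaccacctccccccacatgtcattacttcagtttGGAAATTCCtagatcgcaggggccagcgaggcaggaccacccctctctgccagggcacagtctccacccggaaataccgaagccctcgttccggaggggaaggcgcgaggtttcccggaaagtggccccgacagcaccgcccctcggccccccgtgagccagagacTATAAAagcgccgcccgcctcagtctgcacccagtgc
Emcn: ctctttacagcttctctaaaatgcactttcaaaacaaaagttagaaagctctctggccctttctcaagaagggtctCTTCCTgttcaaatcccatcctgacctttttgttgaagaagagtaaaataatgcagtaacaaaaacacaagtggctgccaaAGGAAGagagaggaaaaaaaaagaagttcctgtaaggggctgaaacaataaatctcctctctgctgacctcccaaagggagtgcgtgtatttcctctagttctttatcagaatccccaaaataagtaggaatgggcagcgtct

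The motifs were searched on both strands and were chosen with these sequences in view. A kappaB-like core, GGANNTTCC, the kind of site that NF-kappaB binds, occurred in 4.26% of all 32851 windows of the table. It was present in Sele, beginning 145 bases upstream of the start, and in Icam1, beginning 153 bases upstream, and had no match in the windows of Selp and Emcn. The kappaB consensus proper, found in 8.46% of all windows, had no match in the 4. An AP-1 site, TGANTCA, found in 7.81% of all windows, began 73 bases upstream in Sele and 139 bases upstream in Selp. The ETS core AGGAAG, or CTTCCT on the other strand, is the type of site read by ETS factors such as ERG, and 35.4% of all windows held it. It was present in Selp 64 bases upstream and 19 bases after the start, in Sele 65 bases upstream, next to the AP-1 site, and in Emcn 93 and 174 bases upstream. TATAAA, the TATA box, occurred in 13.6% of all windows, and began 49 bases upstream in Sele and 13 bases after the annotated start in Icam1. Sele was the one window of the 4 that held 4 of these 5 motifs. A match describes the letters only, and a missing match says no more than that these letters are not in this window.

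Selp encodes P-selectin, the rolling receptor kept in Weibel-Palade bodies of endothelium and in platelet granules. The gene (NM_011347) lies on mm10 chr1:164115264-164150026, plus strand. It read 4.36 units in control 1 and 4.19 in control 2, against 53.2 in knockdown 3 and 21.1 in knockdown 4. These values rest on 30, 34, 408 and 166 reads. The controls were almost equal, both knockdown libraries lay far above them, and the knockdown libraries differed from each other 2.52-fold. The group means were 4.28 ± 0.117 and 37.2 ± 22.7 units (SD, n = 2), a ratio of 8.69. Even the lower knockdown library was 4.84 times the higher control. The counting intervals ran from 46.2 to 61.0 units in knockdown 3 and from 16.8 to 26.2 in knockdown 4, so that the spread between the 2 knockdown pools exceeded counting error. The log2 fold change, taken on log2(value + 1) and relative to the median of all tested genes (0.17), was 2.55 ± 0.26 (SE). It was 1.91 without knockdown 3 and 3.18 without knockdown 4. Each SE given here comes from the spread of genes at a similar level, not from the gene's own replicates. The SD of Selp itself between replicates, pooled over the groups, was 0.65 on the log2(value + 1) scale.

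Selp overlaps a predicted antisense gene, Gm16548, over 1451 bases of its span. Without strand the reads of the overlap cannot be assigned to either gene. Gm16548 read at most 0.367 of the level of Selp in any library. With all of its value subtracted, Selp had 2.76 and 3.33 units in the controls against 40.6 and 15.1 in the knockdown libraries, a ratio of 9.14. Both knockdown libraries remained above both controls and knockdown 3 above knockdown 4, whereas control 2 was now the higher control.

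Sele encodes E-selectin, the rolling receptor that endothelium makes anew after cytokine exposure. It lies next to Selp in the selectin cluster of chromosome 1 (NM_011345, chr1:164048234-164057677, plus strand). It had no reads in control 1, which allows up to 0.872 units by the limit of 3 pairs and 1.07 by the two-sided interval, and read 0.987 units in control 2, against 7.83 and 3.18 units in knockdown 3 and 4. The reads behind these values were 0, 8, 60 and 25. Sele was thus near the limit of counting in both controls and low, but present, in both knockdown libraries. The ratio of means was 11.1 and the log2 fold change 1.94 ± 0.42 (SE), the largest SE of the 9 genes. As in Selp, knockdown 3 was the higher of the knockdown libraries, by 2.46-fold. The interval of knockdown 4 overlapped that of control 2.

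**Figure D1:**
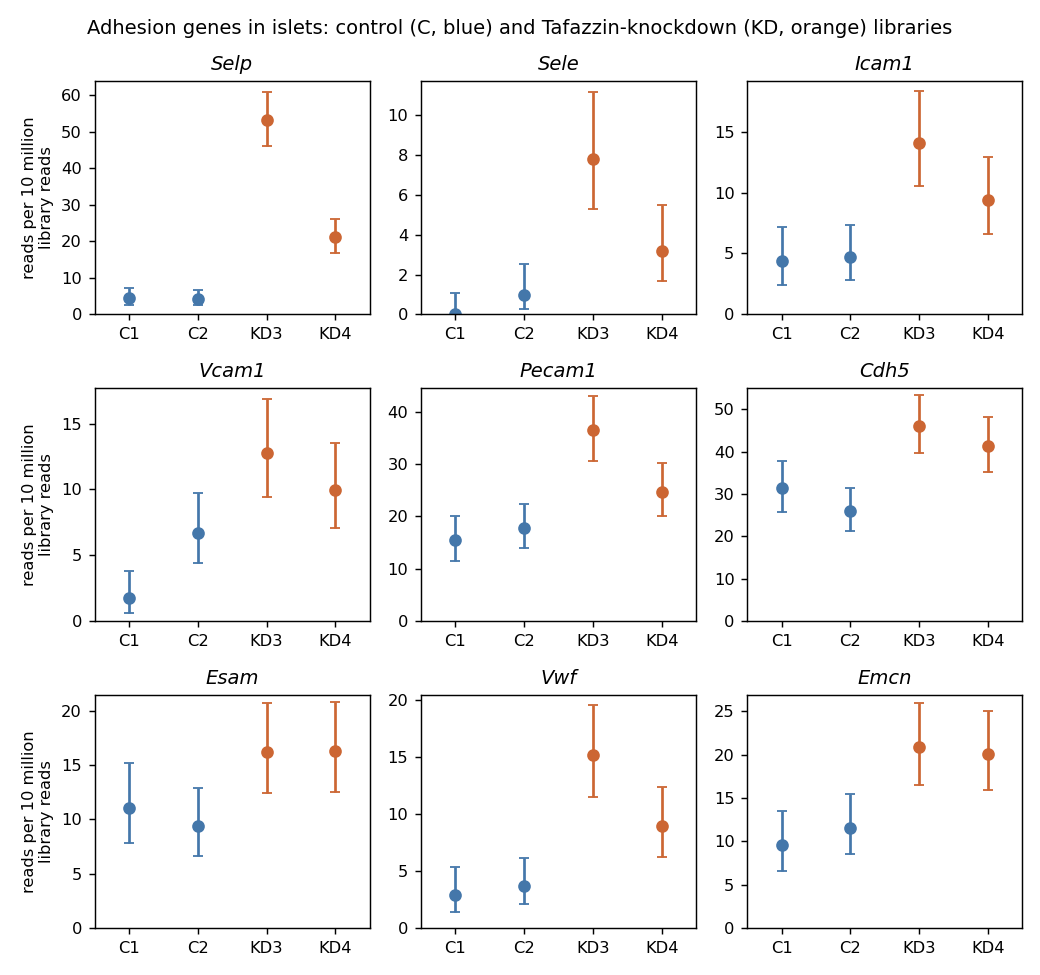
Level of each adhesion gene in each library, in units on a linear axis from 0; points are libraries (C, control, blue; KD, knockdown, orange) and bars are 95% exact Poisson intervals on read pairs. All 9 genes read higher in both knockdown libraries than in both controls, and Selp shows the widest gap between knockdown 3 (53.2) and knockdown 4 (21.1).

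The 2 arrest receptors were also higher in the knockdown libraries, at smaller ratios. Icam1 encodes ICAM-1, the ligand of the leukocyte integrin LFA-1 (chr9:21015940-21028814, plus strand). It read 4.36 and 4.69 units in the controls against 14.1 and 9.41 in knockdown 3 and 4. The controls agreed closely and the groups did not overlap. The ratio of means was 2.60 and the log2 fold change 1.02 ± 0.28 (SE).

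Vcam1 encodes VCAM-1, the ligand of the integrin VLA-4 (chr3:116110020-116129688, minus strand). Control 1 read 1.74 units and control 2 read 6.66, whereas knockdown 3 and 4 read 12.8 and 9.92. The controls differed 3.82-fold, and their counting intervals did not overlap, so that Vcam1 was the gene of the 9 whose controls were farthest apart among those detected in both. The log2 fold change was 1.25 ± 0.29 (SE), but it was 0.38 without control 1 and 2.13 without control 2.

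Vwf encodes von Willebrand factor, the main cargo of Weibel-Palade bodies, which tethers platelets (chr6:125552948-125686679, plus strand). It read 2.91 and 3.70 units in the controls against 15.1 and 8.90 in knockdown 3 and 4. Its groups stood apart by more than their counting intervals, as did those of Selp and Emcn and of no other gene of the 9. The ratio of means was 3.64, the third highest, and the log2 fold change 1.39 ± 0.29 (SE). Emcn encodes endomucin, an endothelial sialomucin of capillaries and veins (chr3:137341078-137431069, plus strand). It read 9.59 and 11.6 units in the controls against 20.9 and 20.1 in the knockdown libraries. The knockdown pools were nearly equal in Emcn, unlike in Vwf or the selectins. The ratio was 1.93 and the log2 fold change 0.73 ± 0.26 (SE).

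The junction genes differed least. Pecam1 encodes PECAM-1, found at endothelial borders and on platelets and leukocytes (chr11:106654213-106715281, minus strand). It read 15.4 and 17.8 units in the controls against 36.4 and 24.7 in knockdown 3 and 4, a ratio of 1.84, with a log2 fold change of 0.65 ± 0.25 (SE). Knockdown 3 exceeded knockdown 4 by more than the counting intervals. Cdh5 encodes VE-cadherin, the adherens junction protein of endothelium (chr8:104101625-104144502, plus strand). It read 31.4 and 25.9 units in the controls against 46.2 and 41.3 in the knockdown libraries, a ratio of 1.53. Esam encodes a tight junction protein of endothelium and platelets (chr9:37528089-37538319, plus strand). Its values were 11.04 and 9.37 units in the controls against 16.2 and 16.3, a ratio of 1.59. The log2 fold changes of Cdh5 and Esam were 0.43 ± 0.25 and 0.46 ± 0.26 (SE), the smallest of the 9, and they moved least between settings, from 0.36 to 0.49 for Cdh5 and from 0.43 to 0.49 for Esam.

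**Figure D2:**
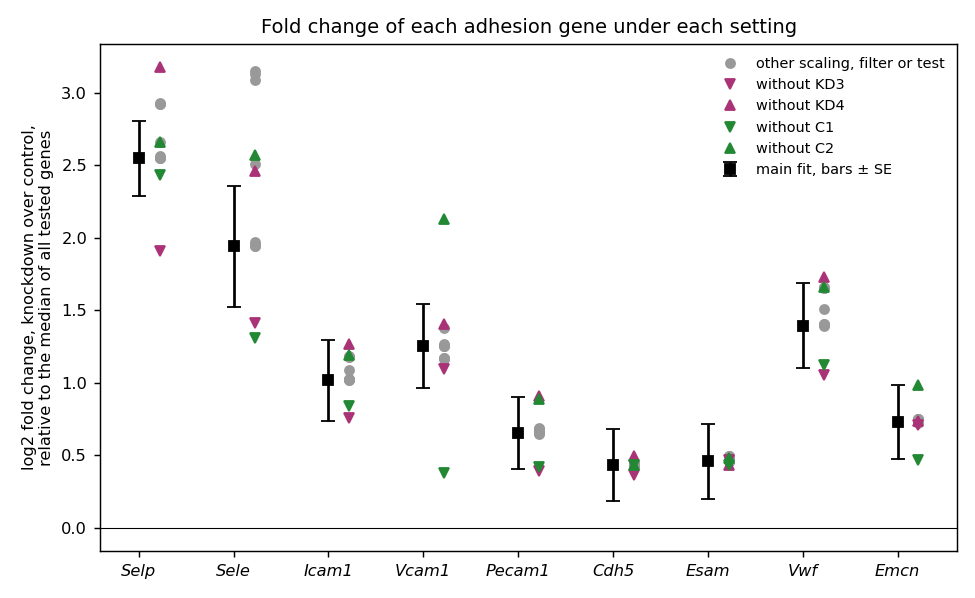
Log2 fold change of each gene, knockdown over control, on the log2(value + 1) scale and relative to the median of all tested genes; black squares are the values given in the text with bars of 1 SE, and the symbols to their right are the values under each other setting. Every value is above 0. Selp ranges from 1.91 to 3.18 and Vcam1 from 0.38 to 2.13. The SE reflects the spread of genes at a similar level, not each gene's own replicates.

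Summed over the 9 genes the level was 80.8 and 84.9 units in the controls against 223 and 155 in knockdown 3 and 4. All 9 genes had both knockdown libraries above both controls, an order found in 34.9% of the 13531 tested genes. In limma, 7 of the 9 were called higher at an adjusted p under 0.05, Cdh5 and Esam being the others, where 2.49% of all tested genes were called higher. After median-ratio scaling 3 were called (Selp, Sele and Vwf), beside 1.12% of all genes, and edgeR on the recovered reads called the same 3, beside 1.29%. Without knockdown 3 only Selp was called. Since these values chose the genes, nothing is read from the counts.

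The order of the levels was compared per kilobase of exon, since the genes differ in length. In the controls Cdh5 was highest at 6.82 units per kilobase, followed by Esam at 3.56, Pecam1 at 2.66, Emcn at 1.96, Icam1 at 1.04, Selp at 0.969, Vcam1 at 0.474, Vwf at 0.206 and Sele at 0.170. Judged by the range of the 2 control values, without counting error, neighbours overlapped in this order only from Vcam1 to Vwf and from Vwf to Sele. Icam1 and Selp were not apart by counting error. In control 1 both rested on 30 reads, with a counting interval of 2.44 to 7.19 units. Per kilobase of exon, junction genes therefore led and the selectins, Vcam1 and Vwf were low in control islets. In the knockdown libraries Cdh5 again had the highest mean at 10.4 units per kilobase, but Selp came next at 8.42, ahead of Esam at 5.66 and Pecam1 at 4.902, and Sele at 1.89 stood above Vcam1 at 1.28 and Vwf at 0.748. There the range of Selp overlapped those of Cdh5, Esam and Pecam1. Per kilobase of gene span, introns included, the place of Selp moved likewise, from the sixth at 0.123 units per kilobase to the second at 1.07, with Esam first in both groups at 0.998 and 1.59. The rest of the control order differed on that scale. Icam1 at 0.351 stood above Pecam1 at 0.272, Vcam1 overlapped Pecam1, and Selp overlapped Emcn at 0.118.

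Some general endothelial genes rose in the knockdown islets too. Of 19 such genes outside the 9, all tested, 6 rose and none fell in limma, with a median log2 fold change of 0.58, and 16 had both knockdown libraries above both controls. For comparison, 2.49% of all tested genes were called higher and 0.0443% lower, and 34.9% had both knockdown libraries above both controls. Aplnr, the apelin receptor of sprouting endothelium, rose from 2.03 and 3.45 units to 19.8 and 9.92, a log2 fold change of 1.87 ± 0.29 (SE) with a limma adjusted p of 1.88e-09. Sox18, an endothelial transcription factor gene, rose to 13.3 and 8.65 units from 3.49 and 2.96 (limma adjusted p = 7.61e-05, 0.324 without knockdown 3), and its adjusted p was 0.0627 in DESeq2. Eng, the TGF-beta co-receptor endoglin and the most abundant of the list, read 28.6 and 25.0 against 69.6 and 45.5 units (limma adjusted p = 1.82e-03, 0.9998 without knockdown 3). After scaling and in edgeR 4 of the 19 were called, and without knockdown 3 only 1. In bulk tissue, more endothelial cells and more RNA of these genes per endothelial cell cannot be told apart.

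The 9 genes were therefore also set against the summed level of those 19 genes, which was 247 and 193 units in the controls against 442 and 342 in the knockdown libraries. Per 100 units of that sum, Selp read 1.76 and 2.17 in the controls against 12.04 and 6.17 in the knockdown libraries, a ratio of 4.62. Sele read 0 and 0.512 against 1.77 and 0.929, Vwf 1.18 and 1.92 against 3.42 and 2.60, and Icam1 1.76 and 2.43 against 3.19 and 2.75. On this relative scale those 4 genes were still higher in both knockdown libraries, at ratios of 5.28 for Sele, 1.95 for Vwf and 1.42 for Icam1. Vcam1, Pecam1, Esam and Emcn overlapped between the groups, and the group means of Pecam1 were 7.720 and 7.721. Cdh5 was lower, at 12.7 and 13.4 in the controls against 10.5 and 12.1. These ratios are a description with no test, and they changed little when Eng was left out of the sum, to 4.77 for Selp.

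**Figure D3:**
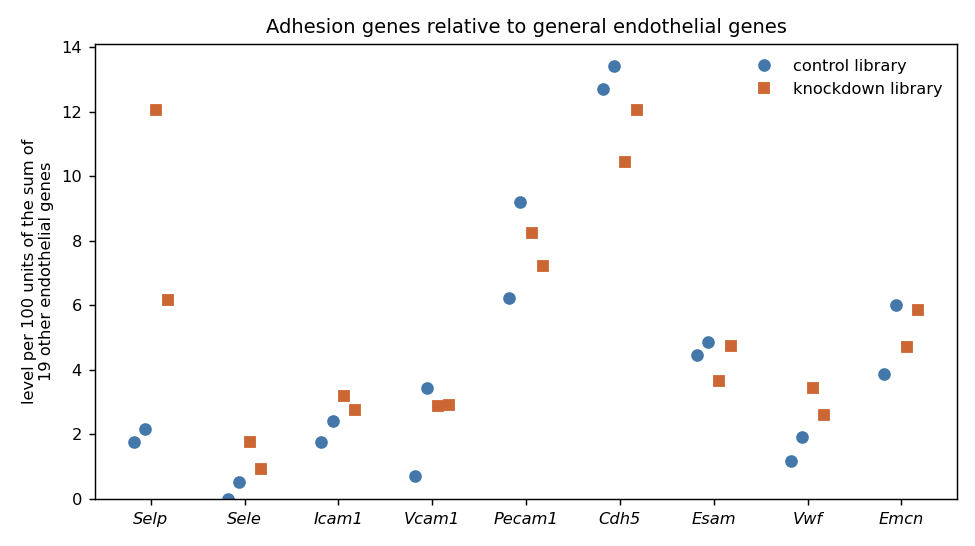
Level of each adhesion gene per 100 units of the summed level of 19 other endothelial genes, on a linear axis from 0, in control libraries (circles, replicates 1 and 2 from left) and knockdown libraries (squares, replicates 3 and 4). Selp, Sele, Icam1 and Vwf lie higher in both knockdown libraries, Cdh5 lies lower, and the other genes overlap.

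Venous, arterial and lymphatic lists each held 1 gene that rose in limma, where 2.49% of all tested genes were called higher. Of the 4 tested genes in each list, 4 venous, 3 arterial and 2 lymphatic genes had both knockdown libraries above both controls. That order was found in 34.9% of all tested genes. Of 4 venous genes, Ephb4, a venous ephrin receptor, rose to 20.9 and 8.65 units from 5.52 and 5.43 (limma adjusted p = 1.64e-03, 0.116 after scaling). Of 4 tested arterial genes, its ligand gene Efnb2 rose to 19.8 and 10.4 units from 4.94 and 6.41 (limma adjusted p = 7.07e-04, 0.0639 after scaling). Without knockdown 3 neither Ephb4 nor Efnb2 was called (limma adjusted p = 0.9998 for both). The medians of the venous and arterial lists were 0.60 and 0.77. Of 4 lymphatic genes, Pdpn, which stromal cells make as well, rose to 16.7 and 8.52 units from 2.03 and 1.97 (limma adjusted p = 4.01e-09, 8.74e-04 after scaling). Prox1, which endocrine cells of the islet also use, read 64.1 and 43.4 against 64.8 and 66.1 (limma adjusted p = 0.792).

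Of 20 other adhesion and junction genes, 18 were tested, with a median log2 fold change of 0.17. Both knockdown libraries lay above both controls in 12 of the 18, an order found in 34.9% of all tested genes. In limma 5 had an unadjusted p under 0.05, as had 1400 of all 13531 tested genes. None fell and all but 1 were not called, where 2.49% of all tested genes were called higher. The exception was Cd34, a sialomucin and selectin ligand of capillaries, at 5.81 and 6.66 against 17.6 and 12.2 units, with a log2 fold change of 0.95 ± 0.27 (SE) and an adjusted p of 2.42e-03 in limma, but 0.0604 after scaling, 0.0553 in edgeR and 0.861 without knockdown 3. Its reads overlap those of Gm16897, which reached 1.07 times its level. Ctnnb1, the beta-catenin gene common to adherens junctions of all cells, read 347 and 266 against 399 and 366 units (limma adjusted p = 0.700).

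The leukocyte side of the binding was little represented. Of 12 ligand and integrin genes, 7 were tested. In limma 0 were called, 1 had an unadjusted p under 0.05, and the median was -0.16. That 1 was Cd44, a hyaluronan receptor that can bind selectins and is made by many cell types, which read 1528 units in control 1 and 902 in control 2 against 792 and 868 in the knockdown libraries. Its log2 fold change was -0.67 ± 0.21 (SE), with an adjusted p of 0.269 in limma, 4.96e-03 in limma after scaling and 0.0280 in edgeR, so that the call depended on the scaling and control 1 stood apart. Of 11 enzyme genes that build selectin ligands, 9 were tested and 1 rose, where 2.49% of all tested genes were called higher. St3gal4, a sialyltransferase of the sialyl Lewis x cap, went from 4.94 and 3.95 to 17.1 and 8.65 units, with an adjusted p of 5.03e-04 in limma, 0.0473 after scaling, 0.0289 in edgeR, 0.178 in DESeq2 and 0.9998 without knockdown 3. Tpst2, a tyrosine sulfotransferase that modifies the P-selectin ligand PSGL-1, read 28.5 and 25.8 against 27.3 and 26.2 units (limma adjusted p = 0.993).

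Weibel-Palade body genes outside Selp and Vwf showed no call. Of 17 cargo and release genes 14 were tested. In limma 0 were called, 3 had an unadjusted p under 0.05, the edgeR count was 0, and the median was 0.03. Sytl4, a granule docking gene that beta cells also use, was the most abundant at 221 and 168 against 161 and 199 units (limma adjusted p = 0.955). Among cargo named outside the rule, chosen after its values were seen, Angpt2 read 9.88 and 10.9 against 16.7 and 17.6 units (limma adjusted p = 0.181), and it overlaps Mcph1, which reached 2.07 times its level.

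Of 19 genes of cytokines, their receptors and the NF-kappaB pathway, 15 were tested, 2 rose and none fell, and the median was 0.23. Among all tested genes 2.49% were called higher. In 9 of the 15 both knockdown libraries lay above both controls, an order found in 34.9% of all tested genes. In limma 4 had an unadjusted p under 0.05, as had 1400 of all 13531 tested genes. Osmr, a subunit of the oncostatin M receptor, rose to 10.4 and 5.60 units from 2.33 and 2.22 (limma adjusted p = 1.18e-03, 0.0540 after scaling, 0.0419 in edgeR). Il4ra, the shared chain of the interleukin-4 and interleukin-13 receptors, rose to 27.4 and 15.5 units from 9.44 and 9.004 (limma adjusted p = 2.13e-03, 0.0529 after scaling, 0.0320 in edgeR). Both calls were lost without knockdown 3, at adjusted p of 0.945 for Osmr and 0.9998 for Il4ra in limma. The ligand genes Osm and Il13 had 0 reads in every library, and Tnf and Il4 were under the filter. Il1r1, the interleukin-1 receptor gene and the most abundant of the list, read 1058 and 889 against 1073 and 992 units (limma adjusted p = 0.961).

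Over all 9 related lists together, 94 of 112 genes were tested, of which 13 rose and none fell in limma, with a median of 0.24. Both knockdown libraries lay above both controls in 57 of the 94 and below them in 2, orders found in 34.9% and 4.49% of all tested genes. Without knockdown 3 the calls dropped to 2, and without control 1 they numbered 34. Over all tested genes the calls higher numbered 337, against 26 without knockdown 3 and 1264 without control 1. By list, leaving out control 1 took the calls from 1 to 7 in the other adhesion and junction genes, from 6 to 11 in the general endothelial genes, from 0 to 3 in the Weibel-Palade genes, from 2 to 6 in the cytokine list, from 1 to 2 in the arterial list and from 1 to 3 in the lymphatic list.

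**Figure D4:**
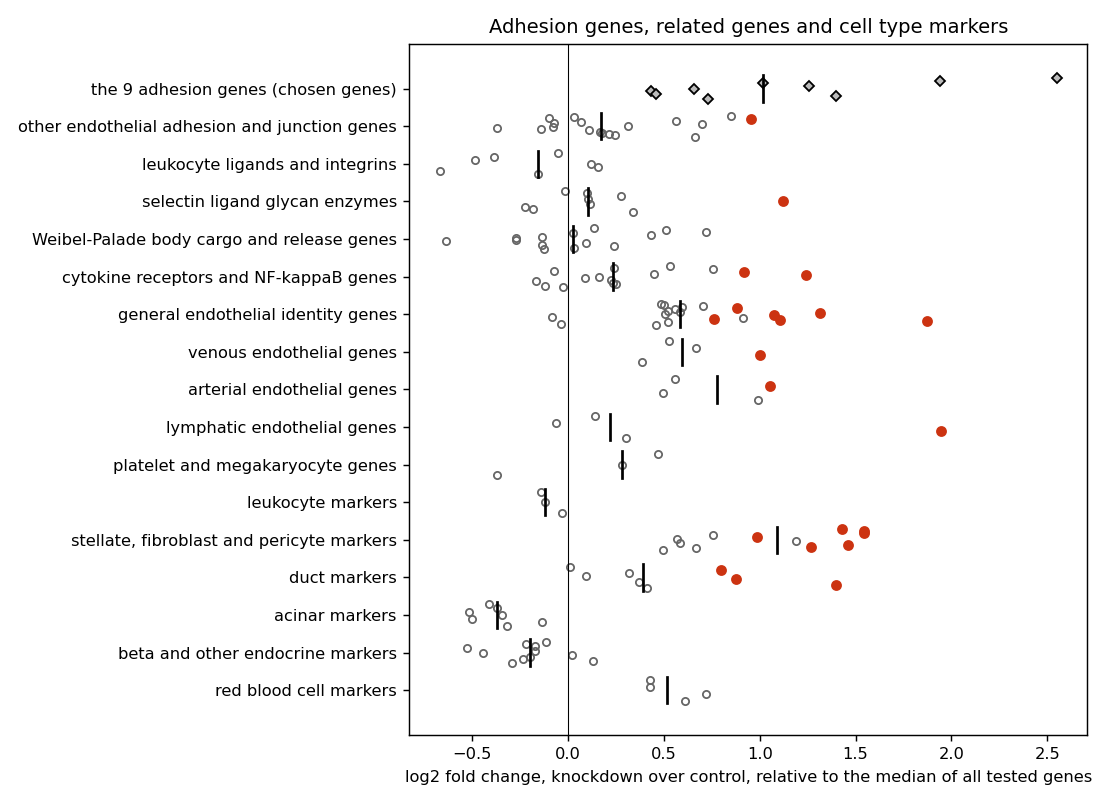
Log2 fold change, knockdown over control, relative to the median of all tested genes, for every tested gene of each list; filled circles passed limma at an adjusted p under 0.05, open circles did not, diamonds are the 9 adhesion genes, whose calls are not marked because this comparison chose them, and vertical bars are list medians. The endothelial and the stellate, fibroblast and pericyte lists lie to the right, with medians of 0.58 and 1.09, and the Weibel-Palade and leukocyte lists lie near 0.

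Several of the 9 genes are also made outside endothelium, Selp and Pecam1 by platelets and Vcam1 and Icam1 by stromal cells and leukocytes. Of 13 platelet and megakaryocyte genes, Gp6, Treml1 and Clec1b had 0 reads in all 4 libraries. Ppbp and Pf4, platelet chemokine genes, read at most 0.261 and 1.145 units, and Itga2b, the platelet integrin gene, at most 0.913. All were named after their values were seen. The sum of the list was 17.9 and 16.0 units in the controls against 27.0 and 21.6 in the knockdown libraries, and of 3 tested genes 0 were called in limma or edgeR, with 1 at an unadjusted p under 0.05. The highest value of the list was that of Gp1bb, whose row overlaps that of Sept5, at 5.45 times its level. Of 10 leukocyte markers, Ms4a1, S100a8 and Ly6g had 0 reads throughout. The list summed to 10.5 and 12.1 units in the controls against 12.3 and 11.2 in the knockdown libraries, and of 3 tested genes 0 were called in limma or edgeR, with 0 at an unadjusted p under 0.05. Selp itself read 4.36 and 4.19 units in the controls, where the entire platelet list summed to 17.9 and 16.0. In the knockdown libraries Selp read 53.2 and 21.1 units and the platelet list summed to 27.0 and 21.6. Units are not scaled by gene length, and the source of the Selp reads was not tested. Red blood cell genes summed to 3.78 and 5.18 units in the controls against 17.2 and 5.60 in the knockdown libraries, so that knockdown 3 was high there as well. Of the 4 tested, 0 were called in limma or edgeR, with 1 at an unadjusted p under 0.05. The part of retained blood in the results was not tested.

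Markers of stellate cells, fibroblasts and pericytes, 12 in all, moved with the adhesion genes. Among all tested genes, 34.9% had both knockdown libraries above both controls and 2.49% were called higher in limma. All 12 had both knockdown libraries above both controls, 6 rose in limma (5 after scaling and in edgeR, 2 without knockdown 3), and the median was 1.09. Col1a1, a fibrillar collagen gene, rose to 66.5 and 48.1 units from 18.6 and 17.5 (limma adjusted p = 6.25e-08, 0.150 without knockdown 3). The 2 genes still called without knockdown 3 were Col1a2 and Col3a1. The list summed to 70.6 and 73.4 units in the controls against 230 and 175 in the knockdown libraries. Per 100 units of that sum, Selp read 6.17 and 5.72 against 23.1 and 12.1, a ratio of 2.96. Sele also stayed above both controls on this scale, at a ratio of 3.88. Vwf read 4.12 and 5.04 against 6.58 and 5.08, a ratio of 1.27, with knockdown 4 almost equal to control 2. Vcam1 overlapped, and Emcn, Pecam1, Esam and Cdh5 lay lower, at ratios of 0.700, 0.650, 0.575 and 0.548. Icam1 read 6.17 and 6.39 against 6.13 and 5.37, a ratio of 0.916, with knockdown 3 almost equal to control 1. Of 8 tested duct markers 3 were called higher in limma (1 after scaling, 2 in edgeR). The duct median was 0.39, and 0.16 without knockdown 3. Krt19, 1 of the 3, overlapped between the groups, at 11.8 and 22.2 units in the controls against 48.1 and 21.9. The duct markers summed to 765 and 759 units against 1449 and 958. The sum of acinar markers was 2298 and 4692 units against 4159 and 1912, with no order by group. In limma and edgeR 0 of 7 tested acinar markers were called, with 0 at an unadjusted p under 0.05 in limma, but in limma 7 were called lower without control 1 and 1 was called higher without control 2. Of 11 endocrine markers 0 were called in limma, and none had an unadjusted p under 0.05, whereas 1 was called lower in edgeR. How far the mix of cell types in each pool entered the levels of the 9 genes was not tested.

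The genes whose profile over the 4 libraries was nearest to that of Selp were sought among all tested genes outside the 9, by the Euclidean distance of centred log2(value + 1). Fbln2, an extracellular matrix gene, was nearest at a distance of 0.334, reading 4.21 and 5.43 units in the controls against 53.0 and 26.5 in the knockdown libraries. Fn1, which encodes fibronectin, followed at 0.375, with 2.91 and 2.22 against 29.5 and 16.3 units. Next came Cdh6, a cadherin gene, at 0.447, Ankrd1, a stress-responsive ankyrin repeat gene, at 0.571, and Car2, a carbonic anhydrase gene, at 0.592. All 5 shared a low level in both controls and a higher level in knockdown 3 than in knockdown 4, the pattern of Selp by which they were sought. Of the other adhesion genes Sele ranked the 22nd among all tested genes, Vwf the 60th, Icam1 the 213th and Vcam1 the 350th, and Esam was the farthest at 1317. With 4 libraries many profiles lie close together, and the distances are a description.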

How the data were processed

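Total RNA of 4 islet pools was sequenced after ribosomal RNA removal with a directional kit, per the labels' protocols. The submitters' processing notes name mm10, STAR 2.5.1b, HOMER 4.9 and edgeR and give no roles. The signal the authors deposited counts reads for every 10000000 library reads and is not scaled by gene length, whatever the table's name says. Its values were whole multiples of 1 read, within 0.01 reads, for 99.99% of values, so that reads could be recovered. Counting over whole gene bodies and without strand was read from the table, as no source used here states it.

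The main test was two-sided, by limma 3.58.1 in R 4.3.3 with its trend option and Benjamini-Hochberg adjustment at 0.05, and used log2(value + 1). Genes under 200 nt, or with a mean under 1 unit, were left out. The test was kept on the deposited scale although whole reads could be recovered, and count tests were run beside it. The trend replaced each gene's own spread, in the SEs as well as in the p-values. Log2 fold changes on this scale understate changes of low genes and are given relative to the median, whereas p-values test the unshifted change. Alternatives were median-ratio scaling, a pseudocount of 0.5, no filter, a mean of at least 2, no trend, edgeR 4.0.16 and DESeq2 1.42.0 on recovered reads, and leaving out each library. EdgeR on read numbers divided by 2 was added after the even read numbers were seen. Self-tests used simulated data. Exon lengths are unions of GENCODE M21 exons.

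The 9 genes and all lists were chosen with earlier results of these data known. Named genes are the 9, Taz, up to 3 called genes of each list with the largest change, the most abundant of each list, and the 5 nearest to Selp. The lists of duct, acinar and endocrine markers served as a check of the tissue. Nothing in the sources pairs the libraries across groups. P-values rest on spread between these pools only. In the main test this is the spread of genes at a similar level, not each gene's own.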

Additional observations from a re-analysis of the deposited data

How the results depend on the processing

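The 9 adhesion genes were above the median of all genes under every setting run. Of 108 alternative values of their log2 fold changes, 101 lay within 1 SD between replicates of the main value. By construction, leaving out 1 library cannot shift the change by more than that SD, except through the subtracted median. That median was 0.17 in the main fit, 0.30 without control 1 and 0.03 without control 2. The count of 101 is therefore no measure of stability. The 7 that moved belonged to Emcn and Vcam1 without either control and to Sele in edgeR, DESeq2 and edgeR on read numbers divided by 2. The number of calls depended on the setting, and the cause was not tested except where stated.

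With the settings of the text, 337 of all tested genes were called higher and 6 lower, with 7 of the 9 adhesion genes and 13 related genes higher and 0 related genes lower. Median-ratio scaling gave 151 higher and 22 lower, with 3 adhesion genes higher, and 6 related genes higher and 1 lower. Of all calls, 98.2% were higher in the main test and 87.3% after scaling. EdgeR gave 174 and 20, with 3 adhesion genes higher, and 9 related genes higher and 1 lower. DESeq2 gave 83 and 11, with 2 adhesion genes higher, and 4 related genes higher and 1 lower. EdgeR on read numbers divided by 2 gave 160 and 18, with 3 adhesion genes higher, and 7 related genes higher and 1 lower. Without the trend 528 were higher and 16 lower. With no filter, over 18054 genes with at least 1 read (rows without a read were left out), 0 were called in any of these sets, although 1484 genes, all 9 adhesion genes and 35 related genes had an unadjusted p under 0.05 in limma, the smallest adjusted p being 0.0771. Leaving out 1 library gave 26 (without knockdown 3) to 1264 (without control 1) higher, 3 (without knockdown 4) to 59 (without control 2) lower, 1 (without knockdown 3) to 7 adhesion genes, 2 (without knockdown 3) to 34 (without control 1) related genes higher and 0 to 1 (without control 2) lower. The lone library left in a group was then assumed to vary like the others. Cd44 was the related gene called lower after scaling and in edgeR.

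With 2 pools in each group and 8 to 54 reads for Sele, Vwf, Selp, Icam1 and Vcam1 in control 2, small differences were not detectable. No paired analysis was possible because the groups share no replicate number.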
